A study of Mus musculus with 9 samples.

Results

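Pyruvate entry into the mitochondrion and the citrate cycle were followed over 36 genes, which were listed by symbol and function and found by gene name in the gene tables, where they were 36 of 54532 genes. RNA had been sequenced from 3T3-L1 cells, a mouse preadipocyte line with the morphology of fibroblasts that turns into fat cells on hormonal stimulation, in 3 groups of 3 libraries each. The Undifferentiated group was kept in high glucose DMEM with BCS, a calf serum, at confluence for 3 days and received no inducer. The Differentiated group was kept at confluence for 3 days in the same way and then placed in a differentiation medium with 1 μM dexamethasone, IBMX, a phosphodiesterase inhibitor, at 0.5 mM, 1 μM rosiglitazone and 10 μg/mL insulin. The Lysfree group received that medium with no lysine added until the end of the differentiation period, when RNA was collected, and by the study's own measurement its medium still held a little lysine. Per the study's methods, the base medium of the Differentiated and Lysfree groups was a DMEM made without arginine and lysine, to which fetal serum, arginine and, for the Differentiated group alone, lysine were added, so serum, base medium, hormones and time cannot be told apart in a comparison with Undifferentiated cells, whereas Lysfree and Differentiated cells differed by the added lysine. A difference in RNA per cell and a difference in how many cells of a culture had turned into fat cells cannot be told apart in these bulk libraries.

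Pyruvate, the end product of glycolysis, crosses the inner mitochondrial membrane through a carrier and is then either oxidised to acetyl-CoA by the pyruvate dehydrogenase complex or carboxylated to oxaloacetate by pyruvate carboxylase. Citrate synthase joins both products to citrate, which the cycle oxidises through isocitrate, 2-oxoglutarate, succinate, fumarate and malate back to oxaloacetate. In fat cells much citrate leaves the mitochondrion instead and is cleaved in the cytosol to acetyl-CoA for fatty acid synthesis, and pyruvate carboxylase refills the cycle. Cytosolic malate dehydrogenase and isocitrate dehydrogenase take part in the return of carbon and in the supply of reducing power.

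The totals per library were 15880144 to 21806693 counts, and all 36 genes had counts in each group. The genes took 0.367% to 0.390% of all counts in Undifferentiated, 1.31% to 1.33% in Differentiated and 0.424% to 0.447% in Lysfree libraries. Lysfree 1 stood apart from Lysfree 2 and 3, with a chi-square per degree of freedom of 43.3 and 44.4 against them and 2.76 between the latter pair. It lay more than 1.2 times above the mean of Lysfree 2 and 3 for 12 of the 36 genes and more than 1.2 times below it for 3. The summed level of 8 adipocyte markers was 286 to 363 FPKM (fragments scaled by gene length and a measure of library size) in Undifferentiated libraries. It was 6732 to 7073 FPKM in Differentiated and 276 to 391 FPKM in Lysfree libraries. In the latter 1 of the 8 was at 0 counts throughout. Between Undifferentiated and Lysfree cells the markers differed in direction, with higher means for Cd36 (16.6 to 72.7 FPKM) and Lpl (146 to 188 FPKM). Means of the other adipocyte markers were lower, as for Adipoq (57.8 to 4.18 FPKM), Cidec (36.7 to 12.0 FPKM) and Retn (6.93 to 0.0109 FPKM). The 6 preadipocyte or fibroblast markers summed to 3590 to 3864 FPKM in Undifferentiated, 784 to 793 in Differentiated and 1000 to 1058 in Lysfree libraries. Col1a1 (means of 1887, 362 and 327 FPKM in that order) and Col3a1 (1365, 345 and 485 FPKM) were the largest parts. Thy1 was highest in Lysfree cells (70.4, 27.8 and 89.1 FPKM). Pdgfra, Pdgfrb, Dlk1 and Col3a1 lay between the other groups there, with Pdgfrb at 84.4, 15.2 and 54.3 FPKM. Macrophage markers summed to at most 5.01 FPKM and endothelial, muscle and epithelial markers to at most 0.188 FPKM. All 8 adipocyte markers had their highest mean in Differentiated cells, as did most of the 36 genes, and their part in the results below was not tested.

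In Differentiated against Undifferentiated cells, 29 of the 36 genes were higher by at least 2-fold with an adjusted p under 0.05 (edgeR's quasi-likelihood test, Benjamini-Hochberg adjustment over 24402 genes) and 1 was lower, whereas 10.4% of all genes tested were higher and 11.4% lower by that rule. By the adjusted p alone, 33 were higher and 3 lower, against 23.0% and 23.2% of all genes. The median log2 fold change was 1.59 over the 36 genes and 0.02 over all genes tested. In Lysfree against Differentiated cells, 24 of the 36 were lower and 1 was higher by at least 2-fold, against 10.5% and 8.14% of 24130 genes. By the adjusted p alone 34 were lower and 2 higher, against 18.8% and 19.7%, and the median was -1.53 over the 36 genes and -0.06 over all. In Lysfree against Undifferentiated cells, 3 were higher and 3 lower by at least 2-fold, against 5.52% and 8.76% of 23994 genes. By the adjusted p alone 15 were higher, 8 lower and 13 did not pass, against 18.0% and 17.1% of all genes called higher and lower, with a median of 0.19 over the 36 genes (0.07 without Lysfree 1) and -0.02 over all. The 3 comparisons share libraries in pairs, so their values are set side by side and their likeness is not read as a result. Nothing in the labels says whether libraries of a group came from separate cultures. The p-values measure only the spread between these libraries, pooled by edgeR over genes, and their size depended on the genes and libraries kept. In Differentiated vs Undifferentiated, Mpc2 had an edgeR adjusted p of 1.4e-119, and 1.7e-09 with edgeR's expression filter. In Lysfree vs Differentiated its edgeR adjusted p was 1.5e-07, and 8.9e-58 without Lysfree 1, at log2 fold changes of -0.86 and -0.82. Adjusted p of different fits are thus not compared in size.

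**Figure D1:**
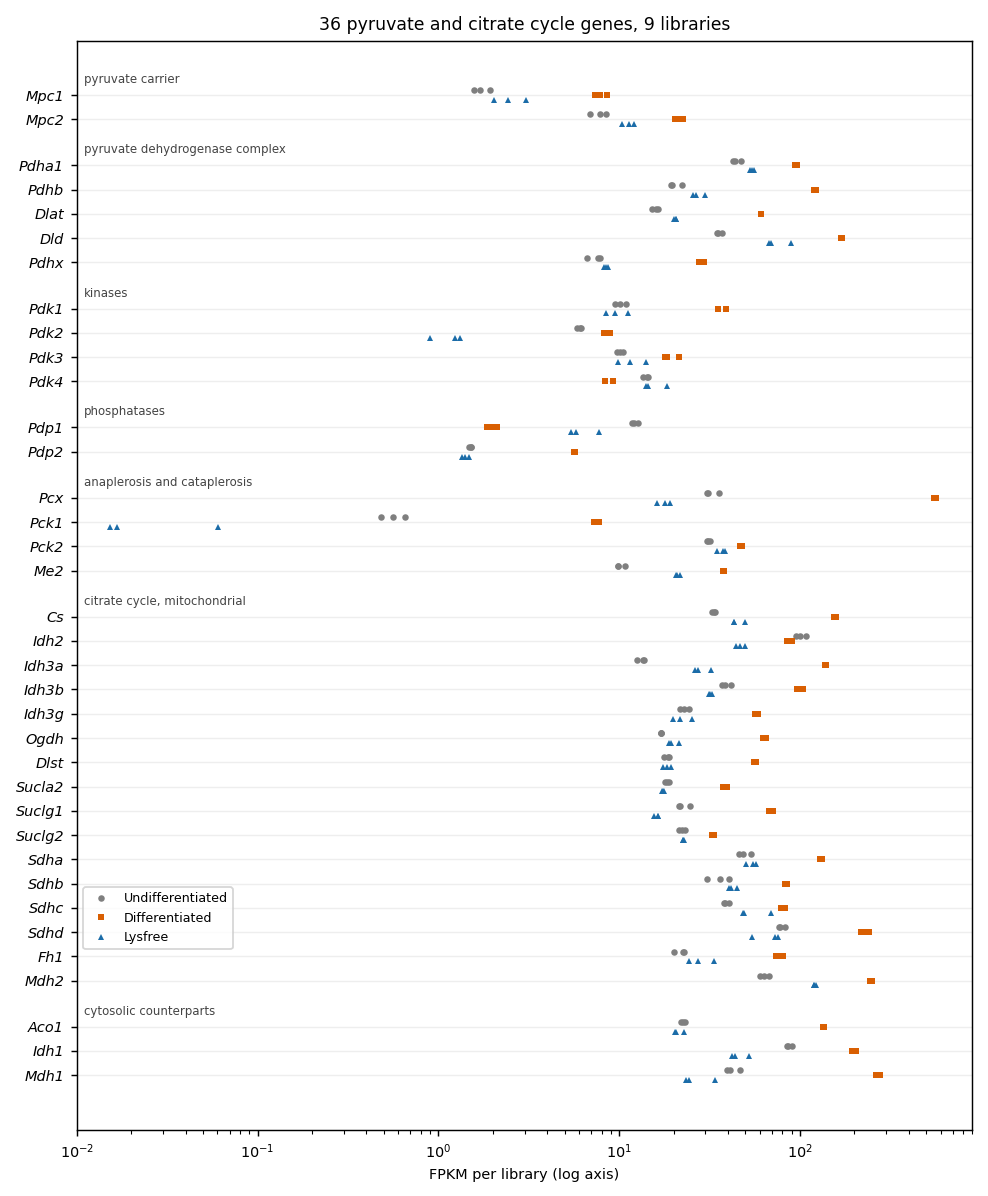
Level of each of the 36 genes (rows, ordered by role) in FPKM on a log axis, with 1 point per library: grey circles for Undifferentiated, orange squares for Differentiated and blue triangles for Lysfree. The Differentiated points lie to the right of the others except for Pdk4, Pdp1 and Idh2, and Pcx is the highest gene at 550 to 566 FPKM.

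Pyruvate carboxylase, encoded by Pcx (ENSMUSG00000024892, mm10 chr19:4510472-4621752, plus strand), had the largest rise of the list. It was at 31.0, 35.8 and 30.5 FPKM in the Undifferentiated libraries, 556, 566 and 550 FPKM in the Differentiated libraries and 18.0, 16.2 and 19.2 FPKM in the Lysfree libraries. Every Differentiated library was far above all others, and the Lysfree libraries were below the Undifferentiated ones with no overlap. The log2 fold change was 4.08 ± 0.05 (SE) in Differentiated against Undifferentiated cells, where edgeR's adjusted p was 0, too small for the software to hold. It was -4.91 ± 0.09 in Lysfree against Differentiated cells (edgeR adjusted p = 1.9e-19) and -0.82 ± 0.10 in Lysfree against Undifferentiated cells (edgeR adjusted p = 7.7e-08).

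Pck1 (ENSMUSG00000027513, chr2:173153048-173159273, plus strand), the cytosolic phosphoenolpyruvate carboxykinase that draws oxaloacetate out for glycerol synthesis in fat cells, moved in the same directions at a far lower level. It was at 0.561, 0.479 and 0.656 FPKM in Undifferentiated, 7.69, 7.22 and 7.62 FPKM in Differentiated and 0.0166, 0.0153 and 0.0601 FPKM in Lysfree libraries. The Lysfree values rest on 6 counts in all, against 113 in the Undifferentiated and 1291 in the Differentiated libraries. Per total count, Undifferentiated exceeded Lysfree by 16.9 times (exact 95% counting interval 7.51 to 46.9) and Differentiated exceeded Lysfree by 218 times (99.9 to 595), and these intervals cover counting error only. The groups did not overlap, and the gene passed edgeR's test in all 3 comparisons, with adjusted p of 3.5e-146, 2.7e-15 and 7.3e-08. The fitted log2 fold change of 3.72 ± 0.14 in Differentiated against Undifferentiated cells rests on 36 to 461 counts a library.

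Pck2 (ENSMUSG00000040618, chr14:55540266-55551242, plus strand), which carries out the same reaction inside the mitochondrion, changed by less than 2-fold. It was at 30.5, 31.9 and 30.9 FPKM in Undifferentiated, 46.9, 47.8 and 47.4 FPKM in Differentiated and 34.8, 37.7 and 38.5 FPKM in Lysfree libraries. The Lysfree libraries lay between the other groups with no overlap. Its log2 fold changes were 0.58 ± 0.05, -0.29 ± 0.08 and 0.30 ± 0.10 in the order Differentiated vs Undifferentiated, Lysfree vs Differentiated and Lysfree vs Undifferentiated, with edgeR adjusted p of 1.1e-27, 0.0075 and 0.013. The last did not pass without Undifferentiated 1 or 3 or Lysfree 2 or 3 (edgeR adjusted p = 0.059 to 0.078). Me2 (ENSMUSG00000024556), the mitochondrial malic enzyme that turns malate into pyruvate, went from 10.2 ± 0.540 FPKM (SD, n = 3) in Undifferentiated to 37.9 ± 0.350 in Differentiated and 21.0 ± 0.513 in Lysfree cells. It was 1 of the 3 genes that stayed at least 2-fold above Undifferentiated in Lysfree cells (log2 fold change 1.10 ± 0.12, edgeR adjusted p = 1.8e-09).

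The bases before RefSeq start sites of Pcx, which rose most, and of the paralogs Pck1 and Pck2, whose changes differed in size, are given first. Pcx has another RefSeq start site, whose window at chr19:4594069-4594318 is not printed, and which start was in use was not tested. Ogdh, which encodes the E1 subunit of the 2-oxoglutarate dehydrogenase complex, is added as a gene of the cycle whose window holds an exact cAMP response element. The sequences run 5′ to 3′ on the strand of the gene, up to the first base that GENCODE places in an exon, in GRCm38. Capitals mark an exact match to TGATGNAA (C/EBP-ATF response element) or TGACGTCA (cAMP response element, CRE) on either strand. Near matches, such as ttacgtca in the Pck1 window, were not searched for and stay in lower case.
Pcx chr19:4510222-4510471 (+): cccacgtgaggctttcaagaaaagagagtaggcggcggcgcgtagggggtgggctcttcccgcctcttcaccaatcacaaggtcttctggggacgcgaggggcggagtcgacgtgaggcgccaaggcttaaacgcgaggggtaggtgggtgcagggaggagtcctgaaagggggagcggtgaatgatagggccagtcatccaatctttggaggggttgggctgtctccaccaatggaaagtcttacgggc
Pck1 chr2:173152823-173153047 (+): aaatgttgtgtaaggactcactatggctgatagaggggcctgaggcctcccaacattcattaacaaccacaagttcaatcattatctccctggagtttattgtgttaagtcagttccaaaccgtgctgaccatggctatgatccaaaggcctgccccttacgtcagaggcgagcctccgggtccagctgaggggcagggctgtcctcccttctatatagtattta
Pck2 chr14:55540016-55540265 (+): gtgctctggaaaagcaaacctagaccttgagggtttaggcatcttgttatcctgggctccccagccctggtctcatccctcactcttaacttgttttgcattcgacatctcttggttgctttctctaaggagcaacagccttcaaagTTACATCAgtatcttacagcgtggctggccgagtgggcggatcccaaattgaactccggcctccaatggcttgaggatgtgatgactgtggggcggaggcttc
Ogdh chr11:6291347-6291596 (+): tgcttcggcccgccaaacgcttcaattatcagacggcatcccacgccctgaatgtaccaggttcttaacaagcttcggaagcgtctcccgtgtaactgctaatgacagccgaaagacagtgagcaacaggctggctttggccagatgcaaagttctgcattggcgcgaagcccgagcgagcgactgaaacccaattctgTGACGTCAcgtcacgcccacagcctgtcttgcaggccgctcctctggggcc

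RefSeq gave 42 start sites for 32 of the 36 genes, and the 250 bases before each were searched on both strands for exact matches to 8 motifs. Pck2 was the only gene of the list with TGATGNAA in a window, at position -103 from its start site, so that 2.38% of the 42 windows held it, against 3.45% of all 32851 windows. TGACGTCA was found for Ogdh and Mdh2, in 9.52% of the 42 windows and 1.55% of all, and the windows of Ogdh overlap each other. The binding motif of NRF1 was found for Sucla2, Sdha and Sdhd (7.14% of the 42 windows and 3.74% of all), and neither DR1, the direct repeat bound by PPAR, nor the ERR motif TNAAGGTCA was found for any of the list (0.0335% and 1.14% of all windows). AGGTCA, the short nuclear receptor motif contained in both of the latter, was found for 4 genes (9.52% of the 42 windows and 14.0% of all). TGTTCT, a short glucocorticoid receptor motif, was found for 4 (9.52% and 16.1%). ACGTG, the core of the HIF site, was found for 9 genes (33.3% and 16.6%). Several of its 14 windows are windows of Ogdh that overlap each other, as for TGACGTCA. These matches describe the letters of the windows and no binding.

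Both subunits of the mitochondrial pyruvate carrier rose on differentiation and were lower in Lysfree cells. Mpc2 (ENSMUSG00000026568) was at 6.92, 8.49 and 7.81 FPKM in Undifferentiated, 21.3, 20.3 and 22.5 FPKM in Differentiated and 10.4, 12.1 and 11.4 FPKM in Lysfree libraries. The Lysfree libraries were between the other groups with no overlap, and the log2 fold changes were 1.44 ± 0.06, -0.86 ± 0.09 and 0.59 ± 0.11 (edgeR adjusted p = 1.4e-119, 1.5e-07 and 4.1e-05). Mpc1 (ENSMUSG00000023861) had means of 1.74 ± 0.172, 7.94 ± 0.599 and 2.51 ± 0.527 FPKM and log2 fold changes of 2.17, -1.59 and 0.59. Its counts of 64 to 286 a library are uncertain, since the pseudogene Mpc1-ps matched its transcript over 261 bases at 100% identity and held 127 to 717 counts a library. A noncoding RNA on the other strand, 4930506C21Rik, overlaps 23.1% of its exonic bases, and whether strand was used in counting is not given in the sources used here.

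The 5 subunits of the pyruvate dehydrogenase complex rose together by at least 2-fold, with log2 fold changes of 1.06 to 2.54. Of all genes tested, 10.4% were called higher by at least 2-fold. Pdhb (ENSMUSG00000021748), which encodes the E1 beta subunit, was at 19.5, 22.2 and 19.7 FPKM in Undifferentiated, 121, 119 and 123 FPKM in Differentiated and 29.7, 25.6 and 26.6 FPKM in Lysfree libraries. Its E1 partner Pdha1 rose least, from 44.7 ± 2.40 to 95.1 ± 1.24 FPKM, and stood at 54.4 ± 1.63 FPKM in Lysfree cells. The levels of these E1 genes, per length, were thus unequal in Undifferentiated cells, where Pdha1 exceeded Pdhb, and in reverse order in Differentiated cells. Dlat, the E2 subunit, went from 15.9 ± 0.553 to 60.6 ± 0.131 and 20.5 ± 0.371 FPKM, and Pdhx, which binds E3 to the core, from 7.35 ± 0.643 to 28.4 ± 0.956 and 8.51 ± 0.222 FPKM. Pdhx was the subunit that did not pass in Lysfree against Undifferentiated cells (log2 fold change 0.26 ± 0.12, edgeR adjusted p = 0.11).

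Dld (ENSMUSG00000020664, chr12:31331277-31351453, minus strand), the E3 subunit that the complex shares with 2-oxoglutarate dehydrogenase and other complexes, stayed above its Undifferentiated level in Lysfree cells. It was at 34.9, 37.0 and 35.1 FPKM in Undifferentiated, 171, 169 and 172 FPKM in Differentiated and 88.8, 67.5 and 69.3 FPKM in Lysfree libraries. Lysfree 1 was the highest of its group and all 3 were above every Undifferentiated library. The log2 fold change in Lysfree against Undifferentiated cells was 1.12 ± 0.11 (edgeR adjusted p = 1.3e-10), and 0.96 without Lysfree 1, under 2-fold.

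The 4 pyruvate dehydrogenase kinases, which switch the complex off by phosphorylation, moved in different ways. Pdk1 (ENSMUSG00000006494) was at 10.9, 9.45 and 10.1 FPKM in Undifferentiated, 38.9, 38.9 and 35.0 FPKM in Differentiated and 11.1, 9.46 and 8.45 FPKM in Lysfree libraries, so that Lysfree and Undifferentiated libraries overlapped (log2 fold change -0.03 ± 0.11, edgeR adjusted p = 0.88). Pdk4 (ENSMUSG00000019577), known as the kinase raised by fasting and by fatty acid use, was at 14.5, 13.5 and 14.2 FPKM in Undifferentiated, 8.38, 9.24 and 9.22 FPKM in Differentiated and 18.5, 14.2 and 14.4 FPKM in Lysfree libraries. It fell by 0.68 ± 0.08 on the log2 scale on differentiation (edgeR adjusted p = 1.7e-17) and was higher by 0.87 ± 0.12 in Lysfree than in Differentiated cells (edgeR adjusted p = 2.9e-06), both under 2-fold.

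Pdk2 (ENSMUSG00000038967, chr11:95026258-95041354, minus strand) was the kinase with the largest difference between Lysfree and Undifferentiated cells. It was at 5.86, 6.07 and 6.12 FPKM in Undifferentiated, 8.26, 8.54 and 8.94 FPKM in Differentiated and 1.31, 1.24 and 0.896 FPKM in Lysfree libraries. All Lysfree libraries were below all others, with log2 fold changes of -2.84 ± 0.16 against Differentiated and -2.34 ± 0.18 against Undifferentiated cells (edgeR adjusted p = 4.7e-12 and 7.0e-13). Pdk3 rose from 10.1 ± 0.407 to 19.2 ± 1.94 FPKM on differentiation and was at 14.1, 9.91 and 11.5 FPKM in the Lysfree libraries, a range that overlapped the Undifferentiated one.

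The phosphatases that switch the complex on again moved in opposite directions. Pdp1 (ENSMUSG00000049225, chr4:11958184-11966452, minus strand) was at 12.7, 12.0 and 11.7 FPKM in Undifferentiated, 1.85, 2.12 and 1.95 FPKM in Differentiated and 7.70, 5.78 and 5.38 FPKM in Lysfree libraries. It was the 1 gene of the list that was lower by at least 2-fold on differentiation (log2 fold change -2.65 ± 0.09, edgeR adjusted p = 2.1e-171) and the 1 that was higher by at least 2-fold in Lysfree than in Differentiated cells (1.73 ± 0.15, edgeR adjusted p = 4.2e-09). The Lysfree libraries lay between the other groups, with a log2 fold change of -0.91 ± 0.13 against Undifferentiated cells (edgeR adjusted p = 3.4e-07), and -1.10 without Lysfree 1. Pdp2 (ENSMUSG00000048371) was at 1.5 ± 0.0262 FPKM in Undifferentiated, 5.63 ± 0.0363 in Differentiated and 1.41 ± 0.0624 in Lysfree cells.

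**Figure D2:**
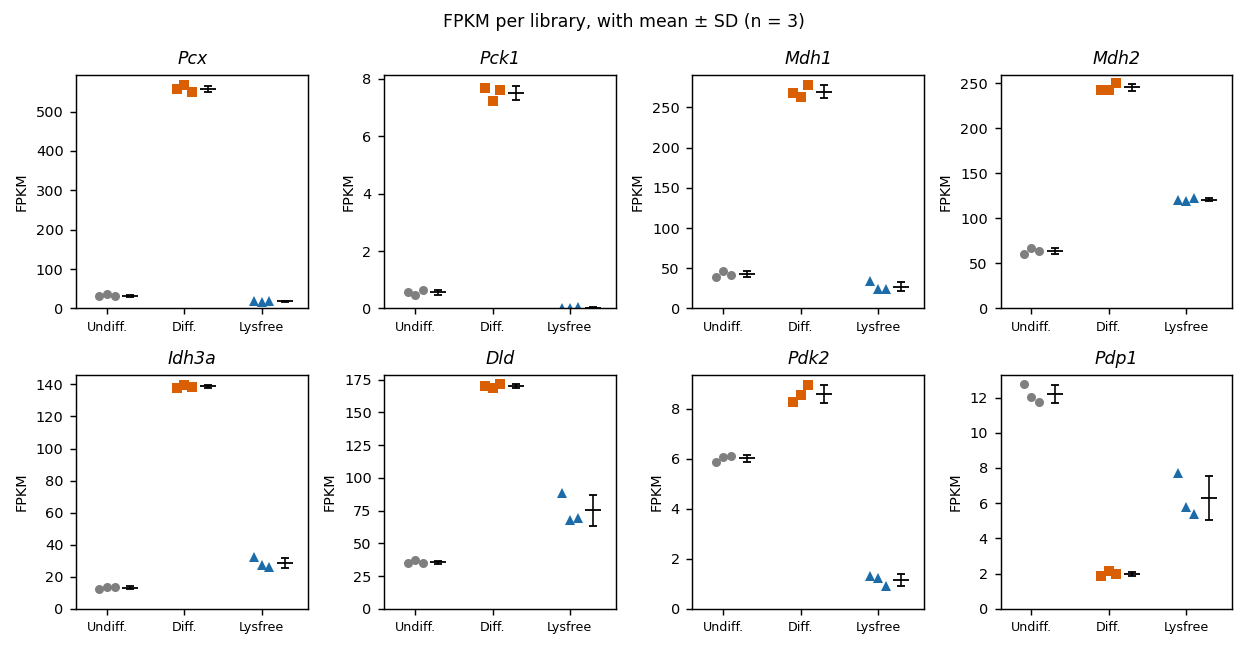
FPKM of 8 genes in each library (points, 3 per group, linear axes that start at 0) with the mean and SD of each group beside them as a black bar. Pdp1 is the panel with its lowest values in Differentiated cells, and Mdh1 and Mdh2 are alike in the Differentiated libraries (263 to 278 and 243 to 250 FPKM) while Lysfree libraries hold 23.6 to 33.8 FPKM of Mdh1 and 119 to 122 FPKM of Mdh2.

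Within the mitochondrial cycle, 14 of 16 genes rose by at least 2-fold on differentiation and 15 by the adjusted p alone. Of all genes tested, 10.4% and 23.0% were higher by these rules, and the 10.4% also stands beside the rises of single enzymes below. Citrate synthase, Cs (ENSMUSG00000005683), was at 34.1, 32.8 and 33.7 FPKM in Undifferentiated, 155, 158 and 158 FPKM in Differentiated and 49.6, 43.4 and 43.0 FPKM in Lysfree libraries. The Lysfree libraries were above the Undifferentiated ones by a log2 fold change of 0.48 ± 0.10 (edgeR adjusted p = 1.2e-04). Mdh2 (ENSMUSG00000019179), the malate dehydrogenase that closes the cycle, was at 60.1, 67.4 and 63.2, at 243, 243 and 250, and at 120, 119 and 122 FPKM in the same groups. Its Lysfree libraries lay nearly 2-fold from either side, with log2 fold changes of -0.96 ± 0.08 against Differentiated and 0.97 ± 0.10 against Undifferentiated cells.

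The NAD-dependent isocitrate dehydrogenase is built from alpha, beta and gamma subunits, and each of their genes rose by at least 2-fold on differentiation. Idh3a (ENSMUSG00000032279, chr9:54586334-54604661, plus strand), the catalytic alpha subunit, was at 12.5, 13.8 and 13.5 FPKM in Undifferentiated, 138, 140 and 139 FPKM in Differentiated and 32.4, 27.1 and 26.2 FPKM in Lysfree libraries. Every Lysfree library was above every Undifferentiated library (log2 fold change 1.15 ± 0.11, edgeR adjusted p = 6.6e-11, and 1.03 without Lysfree 1). On differentiation the log2 fold change was 3.36 ± 0.06 for Idh3a, 1.32 ± 0.05 for Idh3b and 1.29 ± 0.06 for Idh3g. Idh3b was at 39.1 ± 2.29, 99.7 ± 3.77 and 32.1 ± 0.624 FPKM and Idh3g at 23.1 ± 1.30, 57.7 ± 1.02 and 22.2 ± 2.84 FPKM. Neither passed in Lysfree against Undifferentiated cells (edgeR adjusted p = 0.059 and 0.97). Idh3b passed under 8 alternatives, 7 of which kept all libraries, and had a log2 fold change of -0.25 without Lysfree 1. Per length, Idh3a was the lowest of the 3 genes in Undifferentiated cells and the highest in Differentiated cells. The order in Undifferentiated cells depends on the deposited gene lengths (5072 bases for Idh3a and 2701 for Idh3g). In counts, Idh3a (1354, 1533 and 1095) was above Idh3g (1257, 1448 and 994) in each Undifferentiated library.

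Idh2 (ENSMUSG00000030541), the mitochondrial NADP-dependent isocitrate dehydrogenase, was the 1 gene of the mitochondrial cycle that was lower in Differentiated than in Undifferentiated cells. It was at 95.2, 108 and 101 FPKM in Undifferentiated, 89.9, 87.2 and 85.3 FPKM in Differentiated and 44.4, 49.7 and 46.4 FPKM in Lysfree libraries. The first difference was small (log2 fold change -0.24 ± 0.05, edgeR adjusted p = 2.1e-05), and Lysfree libraries were lower than both groups, by -0.84 ± 0.09 and -1.07 ± 0.10 (edgeR adjusted p = 8.8e-08 and 1.1e-10).

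The 2-oxoglutarate dehydrogenase subunits Ogdh and Dlst rose from 17.1 ± 0.0696 to 63.9 ± 1.12 FPKM and from 18.5 ± 0.623 to 56.5 ± 0.758 FPKM, and were at 19.9 ± 1.45 and 18.4 ± 0.943 FPKM in Lysfree cells. Of succinyl-CoA ligase, the alpha subunit Suclg1 went from 22.6 ± 1.77 to 69.8 ± 1.85 FPKM and to 16.2 ± 0.555 FPKM in Lysfree cells, below Undifferentiated with no overlap (log2 fold change -0.44 ± 0.10, edgeR adjusted p = 7.7e-04). The ATP-forming beta subunit Sucla2 rose from 18.4 ± 0.479 to 38.6 ± 0.806 FPKM, while the GTP-forming beta subunit Suclg2 rose from 22.2 ± 0.815 to 33.1 ± 0.407 FPKM, under 2-fold. Suclg2 is uncertain to the extent that the pseudogene Gm15163, 98.9% identical over 1302 bases, held 98 to 187 counts a library against 1582 or more for Suclg2.

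The 4 subunits of succinate dehydrogenase, the enzyme of the cycle that is also complex II of the respiratory chain, rose by at least 2-fold, Sdhc narrowly (log2 fold change 1.02, and 0.99 when scaled by library sizes alone). In Differentiated libraries Sdha was at 129 to 132, Sdhb at 82.8 to 85.0, Sdhc at 78.1 to 82.7 and Sdhd at 218 to 242 FPKM, against 46.0 to 53.8, 30.7 to 40.6, 38.0 to 40.3 and 76.2 to 82.4 FPKM in Undifferentiated libraries. In Lysfree libraries the membrane anchors were at 68.9, 48.2 and 49.2 FPKM for Sdhc and 54.0, 75.9 and 73.2 FPKM for Sdhd. Lysfree 1 was the highest of its group for Sdhc and the lowest for Sdhd. Sdhc passed in Lysfree against Undifferentiated cells (log2 fold change 0.56 ± 0.11, edgeR adjusted p = 1.3e-04, and 0.35 without Lysfree 1), and Sdhd did not (-0.17 ± 0.11, edgeR adjusted p = 0.29, and -0.06 without Lysfree 1). Sdha did not pass either (0.18 ± 0.10, edgeR adjusted p = 0.18). It passed without Lysfree 1, at 0.21 (edgeR adjusted p = 0.0016), a fit whose adjusted p are not comparable with those of the reported fit. Fumarase, Fh1, went from 21.9 ± 1.53 to 76.8 ± 3.74 FPKM, and was at 33.5, 27.2 and 24.3 FPKM in Lysfree libraries.

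The 3 cytosolic counterparts rose by at least 2-fold on differentiation and were all lower by at least 2-fold in Lysfree than in Differentiated cells. Of all genes tested, 10.4% were called higher in the first comparison and 10.5% lower in the second. Mdh1 (ENSMUSG00000020321, chr11:21556787-21572367, minus strand), the cytosolic malate dehydrogenase, was at 39.7, 46.7 and 41.1 FPKM in Undifferentiated, 268, 263 and 278 FPKM in Differentiated and 33.8, 24.3 and 23.6 FPKM in Lysfree libraries. The Lysfree libraries were below every Undifferentiated library, Lysfree 1 by the least. The log2 fold changes were 2.64 ± 0.05, -3.25 ± 0.12 and -0.60 ± 0.12, the last with an edgeR adjusted p of 8.9e-05 and at -0.81 without Lysfree 1. Idh1 (ENSMUSG00000025950), the cytosolic NADP-dependent isocitrate dehydrogenase, was at 85.2, 90.8 and 86.0, at 199, 193 and 203, and at 52.3, 42.2 and 43.6 FPKM in the same groups. It was lower in Lysfree than in Undifferentiated cells by a log2 fold change of -0.88 ± 0.10 (edgeR adjusted p = 1.0e-08, and -1.0 without Lysfree 1). Aco1, the cytosolic aconitase that also binds iron-responsive RNA elements, rose from 22.6 ± 0.590 to 135 ± 0.717 FPKM, and was at 22.8, 20.4 and 20.6 FPKM in Lysfree libraries, within or just under the Undifferentiated range of 22.0 to 23.1 FPKM.

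**Figure D3:**
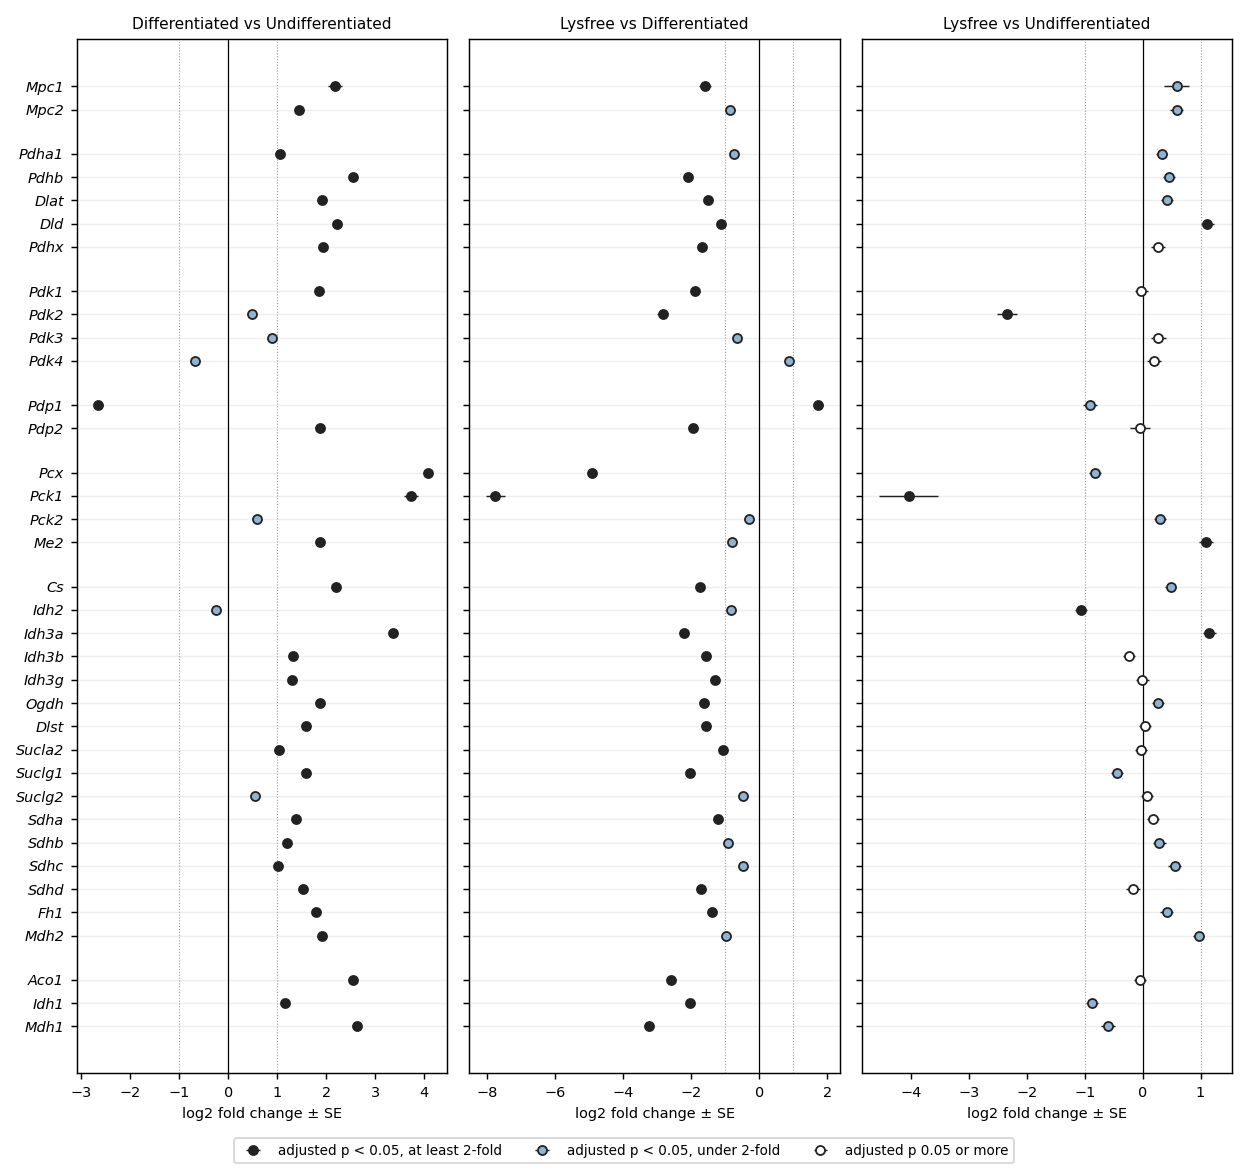
Log2 fold change with its SE for each of the 36 genes (rows, ordered by role) in the 3 comparisons, where black points passed an adjusted p of 0.05 and 2-fold, blue points passed the adjusted p alone and open points did not. The axes differ between panels, with dotted lines at a 2-fold change, and in the right panel Dld, Me2 and Idh3a lie beyond 2-fold above 0 and Pdk2, Pck1 and Idh2 beyond it below 0.

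The balance between genes of a family was given as a share of their summed FPKM in each library. A family held genes for the same reaction or, for succinyl-CoA ligase, the ATP-forming and GTP-forming beta subunits. The size of a share depends on the deposited gene lengths, which may differ from those of the transcripts expressed. Pdp1 made up 89.0 ± 0.292% (SD, n = 3) of phosphatase FPKM in Undifferentiated, 25.9 ± 1.45% in Differentiated and 81.4 ± 2.39% in Lysfree libraries. Among the kinases, Pdk1 went from 25.2 ± 1.07% to 50.6 ± 1.33% and 25.3 ± 1.68%, while Pdk4 went from 34.9 ± 0.218% to 12.1 ± 1.07% and 40.9 ± 0.195% and Pdk2 from 14.9 ± 0.746% to 11.6 ± 0.943% and 3.01 ± 0.521%. Mdh1 held 40.0 ± 0.789% of malate dehydrogenase FPKM in Undifferentiated, 52.4 ± 0.354% in Differentiated and 18.4 ± 3.17% in Lysfree libraries, where Lysfree 1 was at 22.0% and the others at 16.9% and 16.1%. Idh1 held 46.3 ± 0.835%, 69.4 ± 0.882% and 49.5 ± 4.18% of the NADP isocitrate dehydrogenase FPKM, Sucla2 45.3 ± 0.306%, 53.9 ± 0.725% and 43.6 ± 0.216% of the beta subunit FPKM, and Pck1 1.79 ± 0.301%, 13.7 ± 0.500% and 0.0813 ± 0.0645% of the carboxykinase FPKM. Of 27 such comparisons, 24 had groups that did not overlap, and a two-sided exact permutation test then gave p = 0.1, the smallest that 3 against 3 libraries allow (0.113 after Benjamini-Hochberg adjustment over the 27). The other 3 were the shares of Pdk3 on differentiation, and of Pdk1 and Idh1 in Lysfree against Undifferentiated cells, with exact p of 0.6, 0.9 and 0.3. The design cannot bring a share under the threshold. Shares of a family sum to a fixed total and the comparisons share libraries, so the 27 are not separate results.

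**Figure D4:**
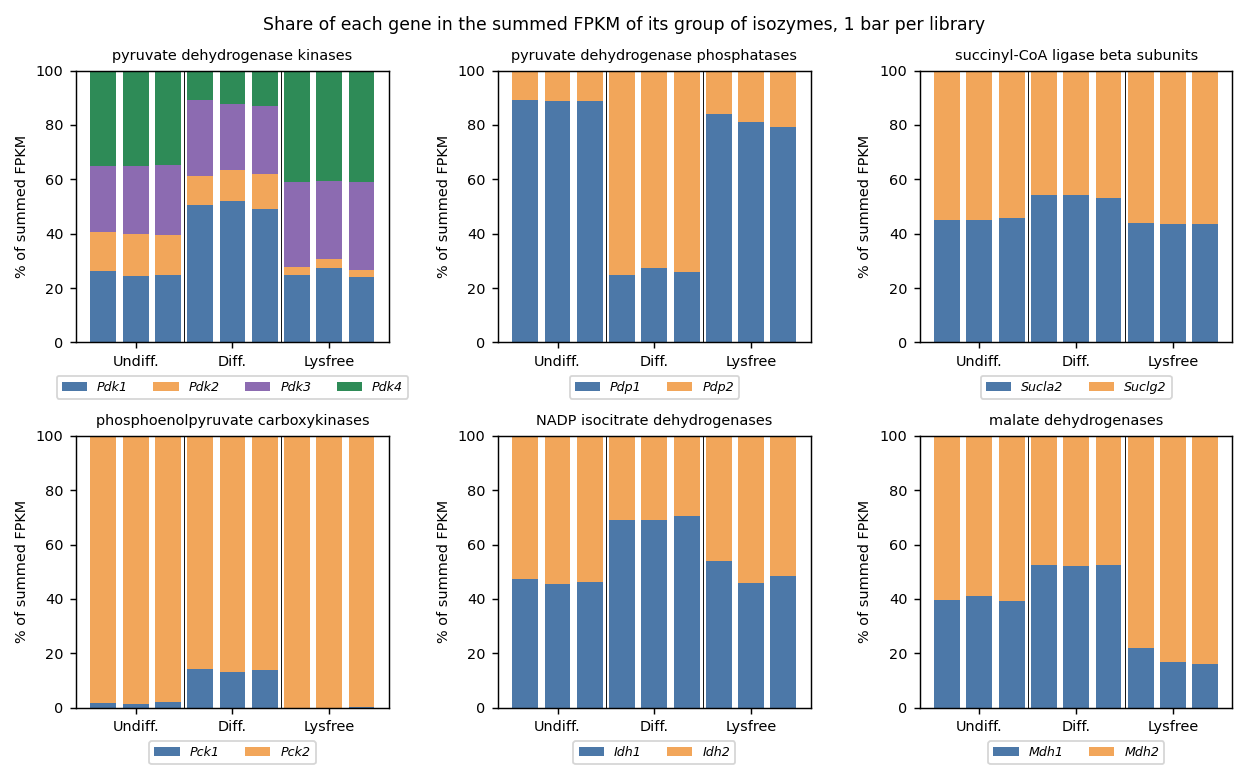
Share of each gene, in percent, in the summed FPKM of 6 gene families, with 1 stacked bar per library and 3 libraries per group from left to right. The lower, blue part of the phosphatase bars is Pdp1, at 24.6% to 27.5% in Differentiated libraries and 79.2% or more in all others.

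Of 33 neighbouring enzymes and transporters, listed by function, 32 had counts. Of these 18 were higher and 2 lower by at least 2-fold on differentiation, against 10.4% and 11.4% of all genes tested. In Lysfree against Differentiated cells 3 were higher and 15 lower, against 8.14% and 10.5% of all genes, and in Lysfree against Undifferentiated cells 4 were higher and 5 lower, against 5.52% and 8.76%. On the route of citrate to the cytosol, Slc25a1, the citrate carrier, went from 48.6 ± 3.17 to 367 ± 12.0 and 31.2 ± 5.92 FPKM, and Acly, ATP citrate lyase, had log2 fold changes of 2.05 ± 0.05, -2.19 ± 0.08 and -0.13 ± 0.10. Slc25a10, the dicarboxylate carrier that exchanges malate, had the largest change of the 32 in both comparisons with Differentiated cells, at 10.1 ± 1.12, 133 ± 6.31 and 2.51 ± 0.276 FPKM. Me1, the cytosolic malic enzyme, was at 22.0 ± 0.599, 68.0 ± 2.11 and 34.5 ± 4.88 FPKM, with its Lysfree level above the Undifferentiated one (log2 fold change 0.69 ± 0.11, edgeR adjusted p = 1.9e-06). Acss2, which makes acetyl-CoA from acetate, and Ldhb, a lactate dehydrogenase subunit, were lower in Lysfree than in Differentiated cells by log2 fold changes of -3.81 ± 0.13 and -3.73 ± 0.12. Pdpr, the regulatory subunit of the phosphatase, had log2 fold changes of 1.00 ± 0.08, just under 2-fold, and -1.32 ± 0.12.

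Slc16a1 and Got1 were highest in Lysfree cells. Slc16a1, which carries lactate and pyruvate across the plasma membrane, was at 13.0 ± 0.628 FPKM in Undifferentiated, 34.2 ± 0.838 in Differentiated and 70.0 ± 9.89 in Lysfree cells, a log2 fold change of 2.47 ± 0.11 against Undifferentiated cells (edgeR adjusted p = 1.2e-18). Got1, the cytosolic aspartate aminotransferase that works beside Mdh1 in the malate-aspartate shuttle, was at 21.0 ± 0.207, 46.2 ± 1.04 and 84.3 ± 4.15 FPKM. Among 9 regulators listed for these pathways, Ppargc1b, a coactivator of mitochondrial genes, went from 0.679 ± 0.0434 to 13.3 ± 0.695 and 1.03 ± 0.210 FPKM, and its paralog Ppargc1a from 1.99 ± 0.253 to 3.01 ± 0.0555 and 5.75 ± 1.24 FPKM. The fat cell factors Cebpa and Pparg had log2 fold changes of 2.81 ± 0.06 and 1.89 ± 0.06 on differentiation and -4.25 ± 0.13 and -2.55 ± 0.12 in Lysfree against Differentiated cells. Hif1a, which encodes a subunit of the oxygen-responsive factor HIF, was at 39.5 ± 2.40, 31.5 ± 0.869 and 81.0 ± 19.8 FPKM.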

How the data were processed

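Poly-A RNA of 3T3-L1 cells had been sequenced with paired reads in 9 libraries. Per the study's methods, the authors mapped reads to mm10, and the submitters' processing notes name HISAT2 2.0.5 and featureCounts 1.5.0-p3. The annotation release and the strand setting are not given in the sources used here. The authors deposited counts per gene, which are raw whole numbers, and FPKM per gene, scaled for gene length and a measure of library size. That measure was not the total of the deposited counts. The median ratio of FPKM to the value from count, length and that total differed by group. It was 0.988 to 0.994 in Undifferentiated, 1.03 to 1.04 in Differentiated and 0.932 to 0.953 in Lysfree libraries. Levels and overlaps in FPKM carry this difference, and the edgeR fold changes rest on counts. Depth was 15880144 to 21806693 counts per library.

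Counts were tested with the quasi-likelihood test of edgeR 4.0.16 (R 4.3.3) after TMM scaling, fitted to the 6 libraries of each comparison, for every gene counted at least once in them, and p-values were adjusted by Benjamini-Hochberg over those genes. A gene was called at an adjusted p under 0.05 and at least 2-fold. SE is the log2 fold change divided by the root of the F value. Like the p-values, it rests on spread pooled over genes and depends on the genes and libraries kept. FPKM served for levels, SDs and shares, and shares were compared with exact permutation tests in scipy 1.17.1. The labels do not say whether libraries of the same number were paired. Correlations of deviations from group means were -0.13 to 0.16 across groups for the same number and -0.20 to 0.15 for other numbers. With 3 libraries a group these cannot settle pairing, and the reported fit used none. Alternatives were DESeq2 1.42.0, limma 3.58.1 on log2(FPKM + 1) and on log2(FPKM + 0.1), scaling by median-of-ratios factors or by library size, filters (that of edgeR, or 10 counts per library), a fit of the 9 libraries together, a replicate block, calls without the fold threshold, and the omission of each library. The tests were run on simulated counts for Differentiated vs Undifferentiated and Lysfree vs Differentiated. Only genes that passed edgeR's expression filter were simulated, so the reported setting, which keeps every counted gene, was not checked.

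The genes, the lists and the tests were chosen with earlier results of these data known. All 36 genes are described. Of the 33 neighbouring genes and 9 regulators, Acly, Me1, Slc25a1 and Pdpr and, per comparison, the 3 with the largest change among those called with a mean of at least 1 CPM are named, and 1 further listed gene is not reported here. Gene positions follow the deposited tables, and all 36 genes matched GENCODE vM21, 35 with the same start and end. Overlapping genes and near-identical transcripts (at least 95% identity over 200 bases) were looked for there. Windows before start sites are from RefSeq, GRCm38.p6.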

Additional observations from a re-analysis of the deposited data

How the results depend on the processing

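All 540 values of the 36 genes under the alternatives in Differentiated vs Undifferentiated and all 539 in Lysfree vs Differentiated kept their direction and their side of an adjusted p of 0.05. In Lysfree vs Undifferentiated, 484 of 539 did, 32 lost and 11 gained an adjusted p under 0.05, and 12 changed direction, none of a gene with an adjusted p under 0.05 in the reported fit. The losses were 9 for Ogdh, 8 for Sdhb, 7 for Mpc1, 4 for Pck2, 2 for Fh1 and 1 each for Pdha1 and Sdhc, and the gains 8 for Idh3b and 1 each for Pdhx, Pdk3 and Sdha. The changes of direction were log2 fold changes near 0, with library sizes alone for Pdk1 (0.0047), Idh3g (0.0228) and Sucla2 (0.0066), with at least 10 counts in every library for Dlst (-0.0193), with limma for Dlst (-0.0067 and -0.007), and with 1 library left out for Pdk1 (0.0283 and 0.0616, range from -0.1613), Idh3g (0.0363, 0.0654 and 0.0109, range from -0.1365) and Dlst (-0.0189, range up to 0.0765). The cause was not tested.

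Without the fold threshold, which by construction calls more, 11260, 9280 and 8428 of all genes were called in the order Differentiated vs Undifferentiated, Lysfree vs Differentiated and Lysfree vs Undifferentiated, against 5329, 4507 and 3426 with it. Among the 36 genes this gave 3 lower in the first, 2 higher in the second, and 15 higher and 8 lower in the third. With at least 10 counts in every library, which tests fewer genes and drops Pck1 from both comparisons with Lysfree, the totals were 3488, 2891 and 2244, and with limma on log2(FPKM + 1), which shrinks low genes, 2726, 2198 and 1474. Scaled by library sizes alone, 28 of the 36 genes were higher in the first, where Sdhc was at 0.99. With 1 library left out, the totals were 5037 to 5161, 4120 to 4485 and 3093 to 3448. The 36 genes then gave 29 higher and 1 lower in the first and 1 higher and 24 lower in the second throughout, and 2 to 4 higher and 3 to 5 lower in the third, where the 5 came without Lysfree 1. The log2 fold change of Pck1 ranged from -8.65 to -3.05 in Lysfree vs Differentiated and from -4.94 to -0.60 in Lysfree vs Undifferentiated, nearest 0 with limma on log2(FPKM + 1). With the replicate number as a block, 4837, 4173 and 3179 of all genes were called, and the correlations of deviations between libraries of the same number were -0.13 to 0.16.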
